A study of Mus musculus with 8 samples.

Results

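The 7 genes described here encode antiviral proteins that interferon induces: Ifit1, Ifit2, Ifit3 and Ifit3b, Ifi44, Rsad2 and Cmpk2. They were taken by gene symbol from the 32285 genes listed in each of 8 single-cell RNA libraries of mouse liver, and all 7 were found in every library. The BG group was 4 female C57BL/6J mice aged 9 weeks that had received 1.2 mg of β-glucan (BG; odetiglucan, also called Imprime PGG) intravenously 48 hours before the liver was taken. The control group was 4 female C57BL/6J mice of the same age that the labels give as controls, with no agent named. Each library is 1 mouse. It combined CD45-positive cells, the leukocytes, with cells collected on a density gradient from the fraction left behind. The comparison asks what BG did to these genes in each kind of liver cell, with the mouse as the replicate.

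The libraries held 44184117 to 60654583 unique molecular identifiers (UMIs, counted RNA molecules) in BG-treated mice and 39612380 to 46211839 in control mice. Of 127557 barcodes, 48465 were kept as cells, 4330 to 5780 per BG-treated mouse and 6222 to 7790 per control mouse. BG replicate 5 stood apart, with a median of 34 genes per barcode and 66.6% of UMIs from mitochondrial genes before cells were selected. Each pair of libraries shared 5 to 26 barcodes among the kept cells. Cells were gated into classes by marker genes, which gave 20890 T cells, 8445 B cells, 5025 endothelial cells, 1669 cells of the NK and ILC1 gates, 1093 plasmacytoid dendritic cells (pDCs), 388 monocytes and macrophages, 308 Kupffer cells (KCs, macrophages that live in the sinusoids) and 178 neutrophils. The labels call the cells leukocytes, but endothelial cells made up 12.9% of the kept cells of BG-treated mice and 8.47% of those of control mice. B cells, which are leukocytes, made up 11.4% of the kept cells of BG-treated and 21.9% of those of control mice. The genes that led most gated classes included markers of the gate itself, which the gating fixed in advance. Among genes outside all marker lists, C1qa and C1qc led in KCs, Timp3 and Gpihbp1 in endothelial cells and Ngp and Camp in neutrophils. Fcer2a and Vpreb3 led in B cells and Dapl1 and Lef1 in T cells. Genes of cell division (Mki67, Top2a) were among those leading in the Cxcr6 CD4 T cells. Control replicate 1 had only 5 KCs and was left out of that class. Barcodes with fewer than 200 genes, whose RNA may be free or come from damaged cells, carried the 7 genes too. Levels are in CPM, the UMIs of a gene in each 1000000 UMIs. In barcodes with fewer than 200 genes they summed to 356 to 590 CPM of the non-mitochondrial UMIs in BG libraries and 183 to 312 CPM in control libraries. In kept cells the sums were 316 to 556 CPM in BG and 93.6 to 159 CPM in control libraries. The part of this RNA in the levels below was not tested.

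Type I interferons bind a receptor that most cells carry. The kinases Jak1 and Tyk2 then pass the signal to transcription factors that bind a short repeat of GAAA in the promoters of target genes. The Ifit proteins are among the most strongly induced products and bind viral RNA. Ifit1 recognises RNA with a foreign cap and blocks its translation, Ifit2 binds RNA as a partner of the other Ifit proteins, and human IFIT3 stabilises IFIT1. Mouse Ifit3b is a close copy of Ifit3. Rsad2 (viperin) turns CTP into a chain terminator of viral RNA synthesis, and Cmpk2, a mitochondrial nucleotide kinase, is encoded beside it. Ifi44 is a cytoplasmic protein related to GTP-binding proteins, whose action is less well known.

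The 7 genes lie at 3 places in the genome (GENCODE vM21 on GRCm38, the assembly of mm10). On chromosome 19, all on the plus strand, are Ifit2 (ENSMUSG00000045932, 34550694 to 34576419), Ifit3 (ENSMUSG00000074896, 34583531 to 34588731), Ifit3b (ENSMUSG00000062488, 34607970 to 34613401) and Ifit1 (ENSMUSG00000034459, 34640871 to 34650009), within 99.3 kb. On chromosome 12, Rsad2 (ENSMUSG00000020641, 26442746 to 26456452, minus strand) and Cmpk2 (ENSMUSG00000020638, 26469204 to 26479837, plus strand) start 12.8 kb apart and point away from each other. Ifi44 (ENSMUSG00000028037) is on the minus strand of chromosome 3, from 151730922 to 151749960. The transcripts of Ifit3 (1745 bases) and Ifit3b (2000 bases) are near copies, with the whole Ifit3 transcript matching at 95.3% of bases, so reads of the pair may be shared and the split between them is uncertain. The last 300 bases, where 3′ libraries read most, match at 94.3% for Ifit3, while the last 300 bases of Ifit3b match Ifit3 at only 52.4%.

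Promoters of all 7 genes (RefSeq, GRCm38.p6, 250 bases before to 50 after the start) were searched on both strands for GAAANNGAAA, the core of the interferon-stimulated response element, whose reverse complement is TTTCNNTTTC. Of 32851 promoter windows of this length in the genome, 3.44% held at least 1 match and 0.225% at least 2. Ifit1, Ifit3 and Ifit3b held 2 matches each and Rsad2 held 1. None was found within these windows of Ifit2, Ifi44 and Cmpk2, which says nothing of sites elsewhere. The stretches with matches are shown, 5′ to 3′ on the strand of the gene, because they hold the element through which interferon is known to act, with the matches in capitals.
Ifit1, chr19:34640773-34640825, plus strand: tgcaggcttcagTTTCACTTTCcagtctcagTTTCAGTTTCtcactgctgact
Ifit3, chr19:34583361-34583428, plus strand: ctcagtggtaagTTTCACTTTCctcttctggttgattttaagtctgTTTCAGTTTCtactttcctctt
Ifit3b, chr19:34607757-34607824, plus strand: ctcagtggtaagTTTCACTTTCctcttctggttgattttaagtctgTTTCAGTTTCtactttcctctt
Rsad2, chr12:26456551-26456584, minus strand: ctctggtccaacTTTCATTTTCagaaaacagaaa
The stretches of Ifit3 and Ifit3b are identical. A match is a description of the sequence and not a measured binding site.

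With all kept cells of a mouse added together, all 7 genes were higher after BG, and for each of them every BG-treated mouse lay above every control mouse. Levels are in CPM with TMM normalization. Calls needed a log2 fold change beyond 0.5 and an adjusted p below 0.05 in edgeR's quasi-likelihood test over 4 mice per group with Benjamini-Hochberg adjustment over all genes tested. Over all 13979 genes tested, 1.02% were called higher, and in 4.33% every BG-treated mouse lay above every control mouse. The median log2 fold change was 1.84 over the 7 members and -0.00 over all genes. Ifit3 had 67.6, 52.7, 88.0 and 35.9 CPM in BG-treated mice, against 10.1, 14.99, 12.3 and 13.7 CPM in control mice, 2.26 ± 0.26 on the log2 scale (SE, adjusted p = 0.00342). Ifit1 had 82.2, 67.1, 81.9 and 52.9 CPM in BG-treated mice, against 15.4, 19.4, 17.5 and 27.3 CPM in control mice, 1.84 ± 0.20 on the log2 scale (SE, adjusted p = 0.00309). BG replicate 8 was the lowest of the BG-treated mice for both genes and still stood above the highest control mouse. The Ifit2 difference was the smallest, with 62.0, 54.6, 73.4 and 48.5 CPM in BG-treated mice, against 21.2, 23.3, 24.6 and 28.7 CPM in control mice (1.29 on the log2 scale). Ifit3b, Ifi44, Rsad2 and Cmpk2 had log2 fold changes of 2.23, 2.07, 1.80 and 1.39. The sum over all cells also moves with the shares of the classes. Endothelial cells, which held more of these RNAs per UMI than most classes, were 5.89%, 19.7%, 15.3% and 9.38% of the kept cells of BG-treated mice, against 5.59%, 8.52%, 8.91% and 11.04% of those of control mice. These shares overlapped, with BG replicates 6 and 7 above every control mouse and BG replicates 5 and 8 below control replicate 4. Fewer cells of a class and less RNA per cell cannot be told apart in it.

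Endothelial cells, which line the liver sinusoids, held more of these RNAs than most classes. All 7 genes rose in them, against 1.22% of 9242 genes tested that were called higher and 3.03% in which every BG-treated mouse lay above every control mouse, as held here for each member. Their median log2 fold change was 2.02, with a median of -0.01 over all genes. Ifi44 had 383, 266, 381 and 254 CPM in BG-treated mice, against 79.3, 93.9, 72.3 and 68.5 CPM in control mice, 2.02 ± 0.14 on the log2 scale (SE, adjusted p = 3.42e-08). Rsad2, the enzyme that makes the chain terminator, had 396, 216, 355 and 238 CPM in BG-treated mice, against 121, 74.3, 77.0 and 80.6 CPM in control mice, 1.76 ± 0.18 on the log2 scale (SE, adjusted p = 1.45e-06). BG replicates 5 and 7 were high for both genes and replicates 6 and 8 lower, and no BG-treated mouse came near the control mice. Its neighbour Cmpk2 had 102, 78.9, 106 and 75.5 CPM in BG-treated mice, against 36.2, 37.6, 25.1 and 35.7 CPM in control mice, 1.42 ± 0.15 on the log2 scale (SE, adjusted p = 2.64e-06).

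The 4 Ifit genes rose together in endothelial cells. Ifit1 had 185, 122, 178 and 95.9 CPM in BG-treated mice, against 17.1, 34.3, 28.6 and 33.3 CPM in control mice, 2.28 ± 0.20 on the log2 scale (SE, adjusted p = 4.66e-07). Ifit2 had 244, 166, 261 and 179 CPM in BG-treated mice, against 84.4, 64.5, 68.8 and 59.98 CPM in control mice, 1.61 ± 0.15 on the log2 scale (SE, adjusted p = 5.77e-07). Ifit3 had 187, 129, 219.6 and 85.4 CPM in BG-treated mice, against 32.1, 36.8, 25.1 and 22.4 CPM in control mice, 2.43 ± 0.24 on the log2 scale (SE, adjusted p = 1.17e-06). The same mice, BG replicates 5 and 7, held the highest values of these 3 genes, and BG replicate 8 the lowest for Ifit1 and Ifit3. Ifit3b, whose reads may be shared with Ifit3, had 64.7, 69.8, 101 and 43.8 CPM in BG-treated mice, against 10.0, 14.7, 16.3 and 14.5 CPM in control mice, 2.33 ± 0.23 on the log2 scale (SE, adjusted p = 1.22e-06). Leaving out any 1 mouse, BG replicate 5 included, left all 7 genes called. With mitochondrial UMIs held to at most 10% only 4 members could be tested and Cmpk2 was not called (1.10, adjusted p = 0.155). Markers of KCs summed to 582 to 702 CPM in the endothelial cells of BG-treated mice and 552 to 606 CPM in those of control mice, and their part in the result was not tested. Of the 10 listed KC markers, 1 was at 0 in the endothelial cells of BG-treated mice and 0 in those of control mice.

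**Figure D1:**
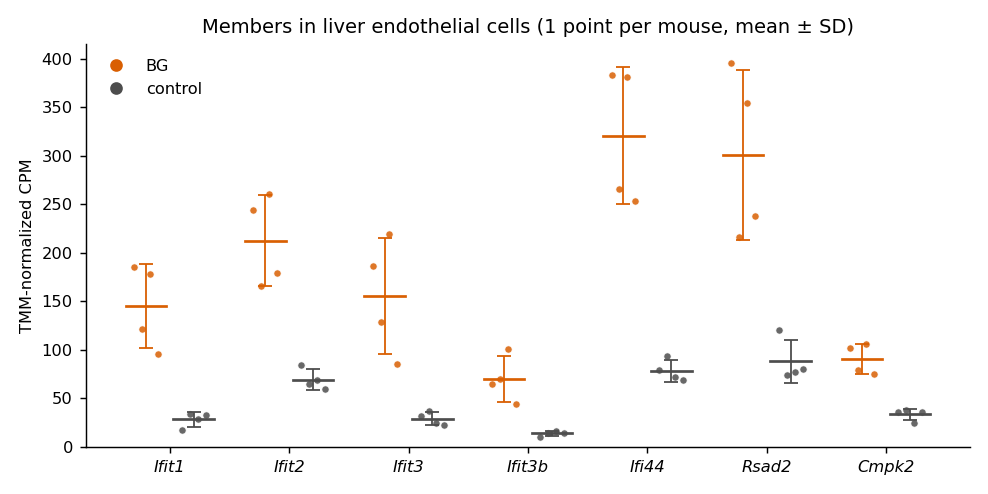
Level of each of the 7 genes in liver endothelial cells (x axis, gene; y axis, TMM-normalized CPM), with 1 point per mouse, BG-treated mice in orange left of control mice in grey, and bars for mean ± SD (n = 4 each). For every gene the lowest BG-treated mouse is above the highest control mouse, for example 254 against 93.9 CPM for Ifi44.

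B cells held little of these RNAs in control mice and responded broadly. Of the 7 genes, 5 had enough UMIs to be tested and all 5 rose, against 1.23% of 8346 genes called higher and 3.64% in which every BG-treated mouse was above every control mouse, as was so for all 7 genes. The median log2 fold change of the 5 was 2.81, and -0.00 over all genes. The filter on low counts keeps a gene through the group where it is high. Ifit3 had 56.5, 36.2, 86.4 and 28.6 CPM in BG-treated mice, against 3.72, 3.68, 6.83 and 2.10 CPM in control mice, 3.45 ± 0.33 on the log2 scale (SE, adjusted p = 5.89e-07). Rsad2 had 23.9, 17.8, 17.8 and 15.2 CPM in BG-treated mice, against 3.03, 1.63, 1.48 and 2.63 CPM in control mice, 2.99 ± 0.29 on the log2 scale (SE, adjusted p = 6.88e-07). Ifit1 had 20.7, 18.5, 14.0 and 10.3 CPM in BG-treated mice, against 2.10, 2.04, 2.67 and 1.58 CPM in control mice, 2.81 ± 0.31 on the log2 scale (SE, adjusted p = 3.28e-06). The control values of these 3 genes lay between 1.48 and 6.83 CPM, under every BG-treated mouse. BG replicate 8 was the lowest BG-treated mouse for all 3. Ifit2 and Cmpk2 were called with log2 fold changes of 2.07 and 1.69. The other members had too few UMIs for the test. Ifit3b had 40 UMIs over the BG-treated mice and 6 over the control mice, a ratio per UMI of the class of 16.5 (95% interval 6.97 to 47.7). Ifi44 had 27 UMIs over the BG-treated mice and 0 over the control mice, at least 22.3-fold higher when 3 UMIs over the group are taken as the limit that a count of 0 allows. Both intervals and limits cover counting error only. Endothelial markers summed to 62.4 to 89.8 CPM in B cells of BG-treated mice and 51.5 to 69.0 CPM in those of control mice, with none of 10 at 0, and their part was not tested. The ratio of Ifi44 to Ifit3 UMIs was 0.12 in B cells and 2.02 in endothelial cells of BG-treated mice.

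T cells, the largest class, carried lower levels than endothelial cells. All 7 genes were called higher, against 2.4% of 11217 genes, with log2 fold changes of 0.58 to 2.18 and a median of 1.58 (-0.01 over all genes). Ifit1 had 80.3, 64.7, 75.8 and 53.5 CPM in BG-treated mice, against 19.2, 19.5, 20.2 and 31.8 CPM in control mice, 1.60 ± 0.16 on the log2 scale (SE, adjusted p = 8.23e-05). Ifi44 stood at 9.12 ± 2.49 CPM in BG-treated mice and 2.05 ± 0.789 CPM in control mice (SD, n = 4 each), 2.18 ± 0.27 on the log2 scale (SE, adjusted p = 0.000304). In 6 of the 7 genes every BG-treated mouse was above every control mouse, which held for 6.53% of all genes. The exception was Ifit2, with 33.3, 27.1, 33.2 and 30.5 CPM in BG-treated mice, against 19.3, 16.6, 19.8 and 27.4 CPM in control mice, 0.58 ± 0.13 on the log2 scale (SE, adjusted p = 0.0211). Its highest control mouse lay above its lowest BG-treated mouse by a fraction of a CPM. It lost its call without control replicate 1 (0.54, adjusted p = 0.0751), 2 (0.49, adjusted p = 0.0506) or 3 (0.55, adjusted p = 0.0781) and without BG replicate 5 (0.54, adjusted p = 0.0657) or 7 (0.54, adjusted p = 0.0590). The list of monocyte and macrophage markers summed to 537 to 766 CPM in T cells of BG-treated mice and 431 to 487 CPM in those of control mice, with none of the 10 at 0. Without Ly6c2, which T cells also express, it summed to 205 to 250.03 CPM in BG-treated and 209 to 237 CPM in control mice. Neutrophil markers summed to 61.9 to 76.6 CPM in BG-treated and 76.9 to 111 CPM in control mice, and the part of these lists in the result was not tested. With NK and ILC1 gates added, all 7 genes were called as well, against 2.4% of 11331 genes.

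T cells were also divided into subsets, in which fewer members could be tested. In NKT-like cells, which carry Cxcr6 with Zbtb16 or Klrb1c, 5 of 7 genes were called, against 2.18% of 9358 genes. Ifit2 (0.50 on the log2 scale, adjusted p = 0.0436) fell just under the fold threshold and Rsad2 had 11.1, 11.24, 14.9 and 13.6 CPM in BG-treated mice, against 7.53, 10.0, 8.43 and 8.18 CPM in control mice, 0.61 ± 0.20 on the log2 scale (SE, adjusted p = 0.113). Without BG replicate 7 the number called was 3, with Ifit3b (1.15, adjusted p = 0.135) and Cmpk2 (1.27, adjusted p = 0.0552) lost. Ifit3b was also lost without control replicate 2 or 4 or BG replicate 6, and Cmpk2 without control replicate 1 or 3. In CD4 T cells outside the Cxcr6 gate only Ifit1 had enough UMIs, with 127, 60.4, 105 and 60.5 CPM in BG-treated mice, against 14.4, 13.6, 0 and 11.01 CPM in control mice, 2.99 ± 0.42 on the log2 scale (SE, adjusted p = 3.60e-05), against 0.829% of 3258 genes called higher. No control mouse of this subset exceeded 14.4 CPM. CD8 T cells had 2 of 3 tested members called, Ifit1 (1.23) and Ifit3 (1.44), against 0.713% of 6027 genes, and neither was called without BG replicate 5 or without BG replicate 7. Ifit1 was not called without control replicate 3 or 4 either. Cxcr6 CD4 T cells had Ifit1 called, with 57.6, 130.1, 81.1 and 66.2 CPM in BG-treated mice, against 11.8, 45.3, 42.6 and 64.6 CPM in control mice, 1.23 ± 0.36 on the log2 scale (SE, adjusted p = 0.0436), against 3.03% of 3404 genes. Its groups overlapped, and the call was lost without control replicate 1 (0.72, adjusted p = 0.338), BG replicate 6 (0.96, 0.159) or BG replicate 7 (1.26, 0.0799), with log2 fold change before adjusted p. In NK and ILC1 gates together Ifit1 was tested alone and was not called, with 19.4, 23.8, 30.6 and 32.3 CPM in BG-treated mice, against 29.98, 11.04, 29.0 and 9.29 CPM in control mice, 0.30 ± 0.32 on the log2 scale (SE, adjusted p = 0.770), against 1.21% of 5544 genes called higher. Among members not tested there, every BG-treated mouse lay above every control mouse for Ifit3, Ifi44 and Cmpk2, as in 3.97% of genes tested. Their means were 21.1, 8.74 and 20.4 CPM in BG-treated mice and 7.15, 1.15 and 5.12 CPM in control mice. They rested on 44, 18 and 40 UMIs in BG-treated and 17, 4 and 11 in control mice. For Ifit2, Ifit3b and Rsad2 the groups overlapped. The monocyte and macrophage list stood higher in BG-treated mice here too, at 596 to 849 CPM in NKT-like cells of BG-treated and 487 to 554 CPM of control mice and at 493 to 752 CPM in CD8 T cells of BG-treated and 399.99 to 489 CPM of control mice. Without Ly6c2 the groups overlapped in both subsets. No member could be tested in gamma delta T cells, where Ifit1 averaged 31.8 ± 7.61 CPM in BG-treated mice and 32.6 ± 20.1 CPM in control mice (SD, n = 4 each). There every BG-treated mouse lay above every control mouse for Ifit3, Ifit3b and Ifi44, as in 3.49% of 3123 genes tested. Their means were 34.4, 16.4 and 17.2 CPM in BG-treated mice and 9.88, 1.99 and 3.01 CPM in control mice. They rested on 30, 14 and 16 UMIs in BG-treated and 10, 2 and 3 in control mice. The groups overlapped for the remaining members.

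**Figure D2:**
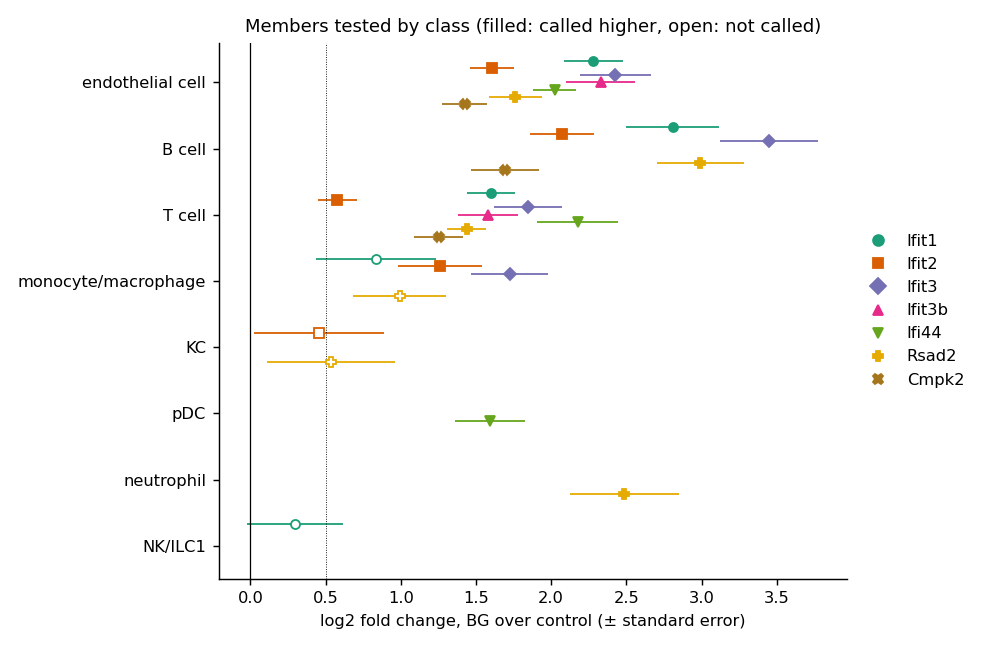
Log2 fold change of BG over control with its standard error (x axis) for each member that passed the filter on low counts, by cell class (y axis), with a symbol per gene, filled where the gene was called higher and open where it was not. The dotted line marks the fold threshold of 0.5. Endothelial, B and T cells carry filled symbols for every member tested, and KCs carry only open ones, at 0.46 for Ifit2 and 0.54 for Rsad2.

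KCs already held Rsad2 and Ifit2 in control mice, and neither was called after BG. Rsad2 had 244, 228, 258 and 403 CPM in BG-treated mice, against 130.1, 60.6 and 484 CPM in control mice, 0.54 ± 0.42 on the log2 scale (SE, adjusted p = 0.675). Ifit2 had 206, 152, 169 and 91.0 CPM in BG-treated mice, against 26.0, 144 and 121 CPM in control mice, 0.46 ± 0.43 on the log2 scale (SE, adjusted p = 0.742). Control replicate 4 alone exceeded every BG-treated mouse for Rsad2 and the control group spanned a wide range, so the groups overlapped. Without control replicate 4 Rsad2 was called (1.84, adjusted p = 0.0280), and without control replicate 3 its sign turned (-0.21, adjusted p = 0.920). The list of monocyte and macrophage markers summed to 1702 to 2746 CPM in KCs of BG-treated mice and 2978 to 3758 CPM in those of control mice, with 3 of the 10 at 0 in each group. Without Lyz2, which macrophages share with monocytes, it summed to 382 to 541 CPM in BG-treated and 172 to 423 CPM in control mice, and its part in the result was not tested. Only 1508 genes could be tested in this class and 0.531% were called higher. The other members had too few UMIs for the test. Ifi44 had 38.6, 127, 96.9 and 26.0 CPM in BG-treated mice, against 0, 7.57 and 17.3 CPM in control mice, and Cmpk2 had 90.0, 76.0, 72.6 and 104 CPM in BG-treated mice, against 0, 37.9 and 17.3 CPM in control mice. In both genes every BG-treated mouse was above every control mouse, which was so for 6.56% of all genes tested in KCs. Their pooled UMIs, 22 against 2 for Ifi44 and 27 against 6 for Cmpk2, gave ratios of 8.09 (95% interval 1.99 to 71.0) and 3.31 (1.34 to 9.80) per UMI of the class. Both intervals cover counting error only and leave out the spread between mice. Endothelial markers summed to 470 to 561 CPM in KCs of BG-treated mice and 451 to 596 CPM in those of control mice. Of the 10 listed, 1 was at 0 in each group, and their part in these values was not tested.

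The KC gate left out cells with 3 or more T cell markers, about as many as it kept. With those cells included, 4 members could be tested over 4 mice per group, and Ifit3 was called, with 96.6, 66.7, 127 and 79.9 CPM in BG-treated mice, against 39.7, 44.6, 32.3 and 47.6 CPM in control mice, 1.31 ± 0.30 on the log2 scale (SE, adjusted p = 0.0198), against 0.77% of 3768 genes called higher. Ifit1, Ifit2 and Rsad2 were not called there, with log2 fold changes of 0.96, 0.60 and 0.47. T cell markers were present in these cells, and the part of T cell RNA in the Ifit3 result was not tested.

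Monocytes and macrophages outside the KC gate had 2 of 4 tested members called, against 2.2% of 2682 genes called higher. Ifit3 had 169.8, 202, 216 and 153 CPM in BG-treated mice, against 41.4, 87.0, 49.7 and 50.8 CPM in control mice, 1.72 ± 0.26 on the log2 scale (SE, adjusted p = 0.000533). Ifit2 had 129, 184, 165 and 139.9 CPM in BG-treated mice, against 64.0, 38.0, 129 and 57.2 CPM in control mice, 1.26 ± 0.28 on the log2 scale (SE, adjusted p = 0.0107). For Ifit3 the groups were far apart, and for Ifit2 the highest control mouse, replicate 3, came within a CPM of the lowest BG-treated mouse. Ifit1 (0.83, adjusted p = 0.344) and Rsad2 (0.99, adjusted p = 0.0894) were not called, and Rsad2 was called without BG replicate 5 (1.17, adjusted p = 0.0219) or BG replicate 8 (1.17, adjusted p = 0.0396). Cmpk2 had 16.2, 127, 71.9 and 12.7 CPM in BG-treated mice, against 52.7, 70.7, 39.8 and 50.8 CPM in control mice, and the groups overlapped. BG replicate 6 held the highest Ifit1, Rsad2 and Cmpk2 of this class. Neutrophil markers summed to 118 to 148 CPM in 3 of the BG-treated mice and 10726 CPM in BG replicate 7, against 58.4 to 718 CPM in control mice, with 0 of the 9 markers at 0 in BG-treated mice and 3 at 0 in control mice. Without BG replicate 7, Ifit3 (1.63, adjusted p = 0.00278) and Ifit2 (1.23, adjusted p = 0.0348) were still called. Without control replicate 2 Ifit2 was not (1.06, adjusted p = 0.0553), and with mitochondrial UMIs held to at most 10% neither gene was (Ifit3 0.97, adjusted p = 0.356).

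Neutrophils reached the highest levels of Rsad2, Ifit1, Ifit3 and Ifit3b of any class in BG-treated mice, from few cells (11 to 24 per BG-treated mouse and 17 to 37 per control mouse). Rsad2 was the only member with enough UMIs for the test, with 1112, 1406, 1039.8 and 1480.4 CPM in BG-treated mice, against 274, 334, 141 and 51.0 CPM in control mice, 2.49 ± 0.36 on the log2 scale (SE, adjusted p = 0.00209), against 2.16% of only 370 genes tested. Ifit3 had 758, 703, 955 and 309.8 CPM in BG-treated mice, against 0, 83.5, 0 and 0 CPM in control mice. Ifit1 had 455, 791, 646 and 448 CPM in BG-treated mice, against 17.2, 41.7, 0 and 0 CPM in control mice. Control neutrophils were at 0 for both genes in at least 2 mice, and no BG-treated mouse was. Pooled over mice, Ifit3 had 66 UMIs in BG-treated and 2 in control neutrophils (ratio per UMI of the class 41.4, 95% interval 11.01 to 349), Ifit1 had 54 in BG-treated and 2 in control (33.8, 95% interval 8.93 to 287) and Ifit3b had 42 in BG-treated and 1 in control (52.6, 95% interval 8.95 to 2128). Ifi44 had only 2 UMIs over the BG-treated mice and 0 over the control mice. Cmpk2 had 13 UMIs in BG-treated and 10 in control neutrophils, a ratio of 1.63 (95% interval 0.660 to 4.15). All these intervals pool UMIs over mice, so they cover counting error only and leave out the spread between mice. KC markers other than Slc40a1 summed to 21.4 to 127 CPM in neutrophils of BG-treated mice and 10.8 to 35.6 CPM in those of control mice, and their part was not tested.

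pDCs, a cell type known for making type I interferon, held more Ifi44 than any other member. Ifi44 had 195, 120.5, 211 and 129 CPM in BG-treated mice, against 8.33, 67.1, 44.1 and 73.6 CPM in control mice, 1.59 ± 0.23 on the log2 scale (SE, adjusted p = 2.85e-05), against 0.576% of 5902 genes called higher. Every BG-treated mouse was above every control mouse, and control replicate 1 was far below the others. It was the only member with enough UMIs for the test, and DESeq2 did not call it (1.74, adjusted p = 0.113). Ifit1, Ifit3 and Ifit3b were close to 0. Ifit1 had 5 UMIs over the BG-treated mice and 5 over the control mice, Ifit3 had 5 in BG-treated and 1 in control mice, and Ifit3b had 1 in BG-treated and 0 in control mice, in 1093 cells. Ifit2 was the exception among the Ifit genes, with 49.9, 16.4, 25.1 and 30.1 CPM in BG-treated mice, against 8.33, 11.18, 9.08 and 11.97 CPM in control mice, from 50 UMIs in BG-treated and 24 in control mice. Cmpk2 had 14.98, 8.93, 16.8 and 8.86 CPM in BG-treated mice, against 2.78, 4.79, 1.30 and 5.13 CPM in control mice. For Ifit2 and Cmpk2 the groups did not overlap, as in 2.81% of genes. Endothelial markers summed to 217 to 259.7 CPM in pDCs of BG-treated mice and 167 to 178 CPM in those of control mice, with none of the 10 at 0, and their part in the Ifi44 result was not tested. The list of monocyte and macrophage markers summed to 3199 to 4038 CPM in BG-treated and 1636 to 1851 CPM in control mice, and without Ly6c2 to 154 to 255 CPM in BG-treated and 178 to 234 CPM in control mice. Its part was not tested.

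Conventional dendritic cells were too few for any member to pass the filter. In cDC2s Rsad2 had 16 UMIs over 4 BG-treated mice and 0 over 4 control mice, at least 4.84-fold higher with 3 UMIs over the group as the limit. That limit covers counting error only. Ifit2 had 133, 85.9, 59.0 and 155 CPM in BG-treated mice, against 0, 36.4, 0 and 0 CPM in control mice, and Ifit3 had 88.9, 115, 98.3 and 66.4 CPM in BG-treated mice, against 0, 36.4, 0 and 0 CPM in control mice. For these 3 genes and Cmpk2 every BG-treated mouse was above every control mouse, which held for 1.94% of the 826 genes tested. This class held 10 to 18 cells per mouse. In cDC1s Ifi44 had 38.6, 24.6, 44.8 and 58.2 CPM in BG-treated mice, against 7.76, 10.9, 36.8 and 12.2 CPM in control mice, and the groups overlapped. In bile duct cells Ifit1 had 112, 56.6, 123 and 21.8 CPM in BG-treated mice, against 27.0, 21.9 and 23.4 CPM in control mice and Ifi44 had 97.6, 50.4, 81.9 and 0 CPM in BG-treated mice, against 63.0, 10.9 and 9.36 CPM in control mice, with overlap in both. Ifit3 averaged 28.8 CPM there in BG-treated and 4.56 CPM in control mice, from 14 and 2 UMIs. Its groups did not overlap, as in 3.1% of 2389 genes tested with every BG-treated mouse higher. The groups overlapped for the remaining members.

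**Figure D3:**
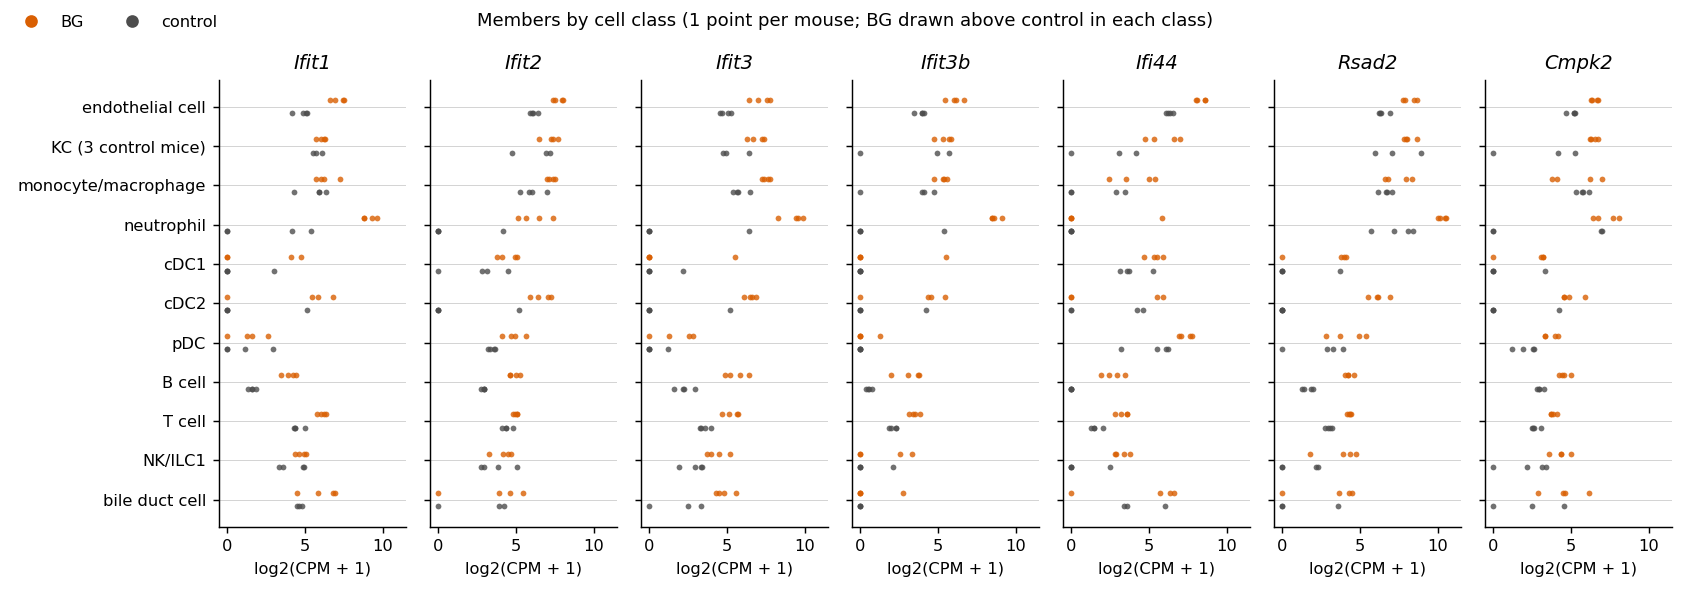
Level of each member (1 panel per gene; x axis, log2 of TMM-normalized CPM plus 1) by cell class (y axis), with 1 point per mouse, BG-treated mice in orange drawn above control mice in grey. Points at 0 are mice with no UMI of the gene in that class. Neutrophils of BG-treated mice stand furthest right for Ifit1, Ifit3, Ifit3b and Rsad2, and endothelial cells and pDCs for Ifi44.

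The part that each member took in the UMIs of all 7 was then compared between classes. Of the member UMIs of pDCs, Ifi44 supplied 63.9% to 77.1% in BG-treated mice and 42.9% to 75.0% in control mice. In endothelial cells it supplied 23.8% to 26.1% in BG-treated and 20.9% to 26.4% in control mice. T cells stood at 3.46% to 5.39% in BG-treated and 1.90% to 5.09% in control mice, B cells at 2.13% to 6.21% and 0%, and neutrophils at 0% to 1.600% and 0%, again BG-treated and control. Some of these shares rest on few UMIs. Control replicate 1, the lowest of the pDC shares, had 7 member UMIs in pDCs, and neutrophils of control mice had 25, 15, 3 and 1. The shares compare the same gene between classes and use no test. Ifit1 supplied 35.9% of the member UMIs of T cells in BG-treated mice and 31.1% in control mice, and in endothelial cells 11.2% in BG-treated and 8.71% in control mice. Rsad2 supplied 38.8% of the member UMIs of neutrophils in BG-treated mice and 63.6% of the 44 such UMIs in control mice. Within 126 samples of class and mouse (16 classes), the levels of Ifit1, Ifit2, Ifit3, Ifit3b, Rsad2 and Cmpk2 had pairwise Pearson correlations of 0.53 to 0.83 on the log2(CPM + 1) scale, the highest for Ifit3 with Ifit3b, whereas Ifi44 had correlations of 0.07 to 0.33 with the others. The points share mice and libraries, differ in depth and include both treatments, so these values describe the data only.

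**Figure D4:**
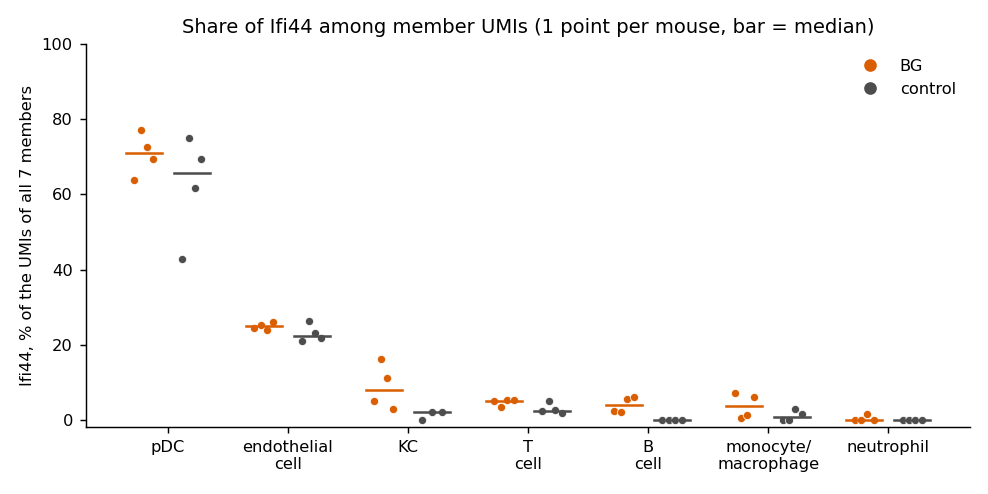
Ifi44 UMIs as a percentage of the UMIs of all 7 members (y axis) in 7 cell classes (x axis), with 1 point per mouse, BG-treated mice in orange left of control mice in grey, and a bar at the median. pDCs lie between 42.9% and 77.1%, endothelial cells between 20.9% and 26.4%, and B cells and neutrophils at 6.21% or less in every mouse. The pDC point of control replicate 1 rests on 7 member UMIs, and the points of control neutrophils on 1 to 25.

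Summed over the 7 genes, the level in BG-treated mice was 3201 ± 421 CPM in neutrophils, 1295 ± 332 CPM in endothelial cells, 831 ± 53.8 CPM in KCs, 738 ± 243 CPM in monocytes and macrophages, 409 ± 28.5 CPM in cDC2s, 234 ± 74.4 CPM in pDCs, 191 ± 33.1 CPM in T cells and 154 ± 39.7 CPM in B cells (SD, n = 4). In control mice the order differed, with KCs at 479 ± 324 CPM (n = 3), monocytes and macrophages at 358 ± 44.4 CPM, endothelial cells at 341 ± 32.5 CPM, neutrophils at 312 ± 264 CPM, T cells at 72.6 ± 16.0 CPM, pDCs at 71.6 ± 37.5 CPM, cDC2s at 46.2 ± 41.7 CPM and B cells at 22.4 ± 3.09 CPM (n = 4). In BG-treated mice neutrophils (2754 to 3603 CPM) lay apart from endothelial cells (971 to 1601 CPM), while KCs (785 to 884 CPM) fell within the range of monocytes and macrophages (521 to 1036 CPM). The 4 highest control classes overlapped. These sums are a description and were not tested.

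A larger share of cells held the RNAs after BG. Every cell was thinned to 1500 UMIs and shallower cells were left out. At that depth 71.9% ± 8.14 of endothelial cells of BG-treated mice held a UMI of at least 1 member and 33.8% ± 3.16 of those of control mice (SD, n = 4 each, 2173 and 1774 cells), and 19.5% ± 7.62 and 2.42% ± 1.34 held UMIs of at least 3 members. Without thinning the first pair was 78.4% and 42.1%. Thinned cells with 3 or more members held 50.03% of the member UMIs of endothelial cells in BG-treated mice and 19.4% in control mice. The shares with at least 1 member, BG-treated and control, were 51.4% ± 5.91 and 24.6% ± 8.08 in KCs (n = 4 and 3), 43.8% ± 3.91 and 16.0% ± 7.49 in monocytes and macrophages, 27.1% ± 5.57 and 8.73% ± 3.53 in pDCs, 18.7% ± 3.60 and 6.63% ± 0.607 in T cells and 14.8% ± 3.51 and 2.81% ± 0.115 in B cells. T cells with 3 or more members were rare, at 0.912% ± 0.0594 in BG-treated and 0.451% ± 0.196 in control mice. Shares over several members were not tested.

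Gene by gene, Ifi44 was found in 32.9% of endothelial cells of BG-treated mice (27.8% to 37.5%) and 11.3% of those of control mice (9.50% to 13.5%), with 1.35 and 1.16 UMIs per positive cell in BG-treated and control mice. In pDCs it was found in 21.8% in BG-treated mice (18.3% to 28.6%) and 5.87% in control mice (1.45% to 8.92%). B cells gave 0.657% in BG-treated mice and 0% in control mice, below the Ifi44 shares of pDCs and endothelial cells of the same group. Ifit1 had another order, with 0.176% of pDCs in BG-treated mice and 0.318% in control mice, 16.4% of endothelial cells in BG-treated and 3.40% in control mice and 8.19% of T cells in BG-treated and 2.34% in control mice. The median depth before thinning was 3189 to 4589 UMIs per cell in pDCs of BG-treated mice and 3459 to 5138 in those of control mice, and in B cells 1486 to 2042 in BG-treated and 1513 to 2225 in control mice. Over 119 pairs of member and class, which include T cells beside their subsets and the NK and ILC1 gates beside theirs and so are not independent, 39 were higher in BG-treated mice at an exact two-sided permutation p of 0.0286, the smallest that 4 mice against 4 allow. The adjusted p of these was 0.0872, so none passed after adjustment over the pairs. In 8 classes that do not overlap, 25 of the pairs had passed the filter on low counts. In 23 of these every BG-treated mouse was above every control mouse, against 2.44% of all 45606 pairs of gene and class that passed it. That filter keeps a gene through the group where it is high, so the 23 pairs are a description and not a test.

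**Figure D5:**
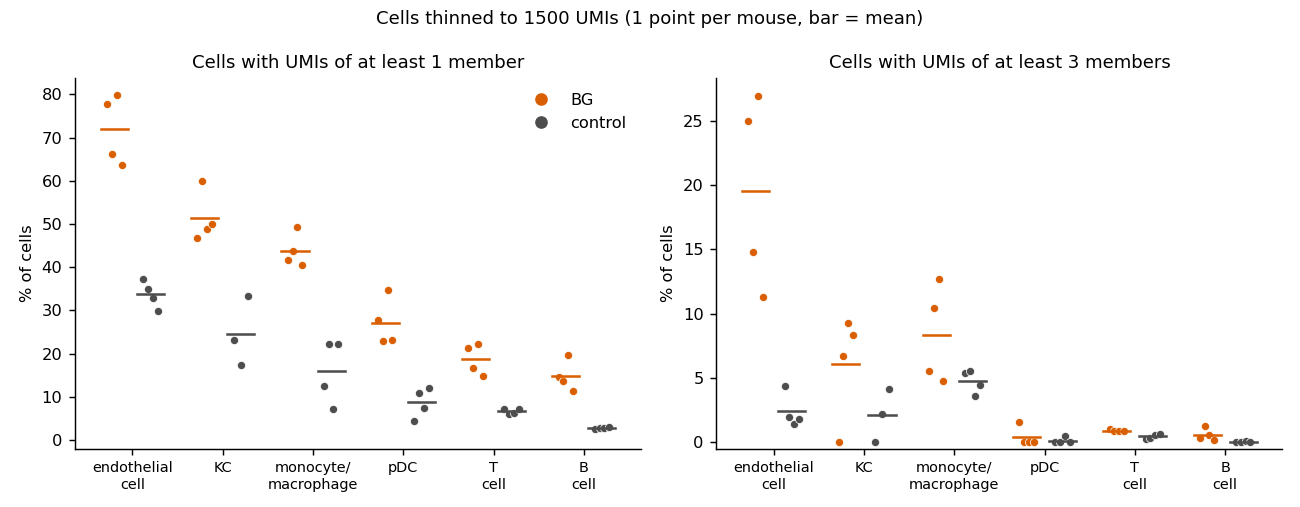
Percentage of cells (y axis) with UMIs of at least 1 member (left panel) or at least 3 members (right panel) in 6 cell classes (x axis), with every cell thinned to 1500 UMIs, 1 point per mouse, BG-treated mice in orange left of control mice in grey, and a bar at the mean. In endothelial cells the means are 71.9% and 33.8% on the left and 19.5% and 2.42% on the right.

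Since a gene called in another class and not in KCs is no test of a difference, the BG effect in each class was set against that in KCs of the same mice (edgeR, interaction term with mouse as a block, 4 BG-treated and 3 control mice). Of 68 member and class pairs over 15 classes, only Rsad2 in B cells differed. The share of all genes that differed from KCs was 0% in monocytes and macrophages, cDC1s, cDC2s and NK cells, 0.104% in endothelial cells, 0.198% in pDCs, 0.474% in neutrophils, 0.632% in bile duct cells, 0.0281% in ILC1-like cells, 0.0509% in CD8 T cells, 0.105% in CD4 T cells, 0.16% in Cxcr6 CD4 T cells, 0.0549% in gamma delta T cells and 0.0855% in NKT-like cells. Its log2 effect was 2.53 larger in B cells than in KCs (standard error 0.55, adjusted p = 0.00314), and 0.241% of the 7475 genes tested in that pair differed. In B cells Rsad2 averaged 18.7 CPM in BG-treated and 2.19 CPM in control mice, and in KCs 283 and 225 CPM, so the class with the larger effect held the lower level in both groups. Without control replicate 4, the mouse with the highest Rsad2 in KCs, no pair differed. Rsad2 in endothelial cells (1.34 larger, standard error 0.38, adjusted p = 0.210) and Ifit1 in neutrophils (4.74, standard error 1.20, adjusted p = 0.0650) did not pass.

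Genes whose level over the 126 samples was most like the sum of the 7 began with 5 interferon targets. Isg15, a ubiquitin-like modifier, had a Pearson r of 0.771, Ifitm3, which blocks virus entry, 0.611, Rtp4, a receptor transporter that dampens interferon responses, 0.603, Slfn5 of the Schlafen family 0.580 and Irf7, a transcription factor of the interferon response, 0.565, out of 3221 genes compared. These values describe the samples, which share mice and libraries. Of 40 other interferon-stimulated genes, 33 of 36 tested rose in endothelial cells (median log2 fold change 0.99), 31 of 34 in B cells (1.43) and 28 of 38 in T cells (0.81). In monocytes and macrophages 17 of 32 rose (0.77), in pDCs 13 of 28 (0.75) and in KCs 4 of 21 (0.41). None fell in any of the classes named. Of all genes tested, 1.22%, 1.23%, 2.4%, 2.2%, 0.576% and 0.531% were called higher in these classes, in that order. The list was chosen with earlier results of these data known. KCs had few cells and few testable genes, so the counts do not rank the classes by response. In endothelial cells the smallest adjusted p belonged to Rtp4 (1.30, 4.66e-07), Irf7 (2.15, 6.30e-07) and Oasl2 (1.49, 1.07e-06), in T cells to Ifi27l2a (2.29, 2.78e-05), Oas3 (1.54, 3.81e-05) and Rnf213 (1.15, 4.79e-05) and in KCs to Ifi27l2a (1.15, 0.0112), Irf7 (1.03, 0.0326) and Bst2 (1.01, 0.0371), where the pairs are the log2 fold change and edgeR's adjusted p. Irf7 in KCs averaged 805 ± 31.9 CPM in BG-treated and 398 ± 59.4 CPM in control mice (SD, n = 4 and 3), in the same class where Rsad2 and Ifit2 were not called.

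Upstream of the members, the receptor and ligand genes were mostly not called. None of 5 tested interferon receptor genes was called in all kept cells, endothelial cells or B cells, with log2 fold changes of -0.16 for Ifnar1 and -0.01 for Ifnar2, the chains of the type I receptor, in all kept cells. Among genes of signalling and feedback, Stat2, Irf9, Irf7 and Usp18 rose in endothelial cells, by 1.13, 0.68, 2.15 and 1.36 on the log2 scale, and Jak1, Tyk2, Irf1, Irf3 and Socs1 were not called. The genes that rose are interferon targets as well and stand in both lists. Of 14 genes that interferon gamma induces preferentially, 8 of 12 tested rose in endothelial cells (median log2 fold change 0.83), 5 of 11 in B cells (0.78), 3 of 13 in T cells (0.32), 0 of 7 in monocytes and macrophages (0.20) and 0 of 6 in pDCs (0.58), and none fell in these classes. Of all genes tested, 1.22%, 1.23%, 2.4%, 2.2% and 0.576% were called higher in these classes, in that order. Among the 8 listed genes that rose in endothelial cells was the chemokine Cxcl9 (1.44, adjusted p = 8.49e-06 by edgeR). Ligands of type I were scarce. Ifnb1 had 5 UMIs over the BG-treated mice and 3 over the control mice, Ifna1, Ifna2, Ifna4 and Ifna5 had none in the kept cells of any library. Ifng, the type II ligand, was abundant, with 12322 UMIs over the BG-treated and 15600 over the control mice, and was not called in all kept cells (-0.09 on the log2 scale). It was tested in 15 of the groups of cells and called in CD8 T cells alone, where it fell to 74.3 ± 14.8 CPM in BG-treated mice, against 112 ± 21.8 CPM in control mice (SD, n = 4 each), -0.63 ± 0.15 on the log2 scale (SE, adjusted p = 0.0301 by edgeR).

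Relatives and neighbours of the members were looked at next. Ifit1bl1, a gene of the Ifit cluster on the opposite strand between Ifit3 and Ifit3b, rose in all kept cells (0.81, adjusted p = 0.00309) and in B cells (1.38, adjusted p = 0.00380), with 445 to 679 UMIs per BG-treated mouse and 332 to 479 per control mouse. Cmpk1, the cytosolic counterpart of Cmpk2, was not called in all kept cells (0.01, adjusted p = 0.981), nor was Rnf144a, listed as a neighbour of Rsad2 and Cmpk2 (-0.11, adjusted p = 0.817). Ifi44l, the neighbour and relative of Ifi44, had no UMI in the kept cells of any library.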

How the data were processed

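Cells of 8 mouse livers, 4 BG-treated and 4 control, were profiled with 3′ single-cell chemistry. The deposited UMI counts per gene and barcode were made by the authors with Cell Ranger 6.1.2 on mm10 with introns counted. Barcodes with 200 to 2500 genes and at most 30% mitochondrial UMIs were kept. Cells were gated by the number of marker genes detected (3, or 4 for monocytes, macrophages, pDCs and plasma cells). The gate rule was set after the marker distributions were seen. Cells with markers of more than 1 lineage were left out, and no doublet caller was run, nor was free RNA subtracted.

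Counts were summed per mouse and class (at least 10 cells per mouse and 3 mice per group) and tested with edgeR 4.0.16 (TMM, filterByExpr, quasi-likelihood) in R 4.3.3, with Benjamini-Hochberg adjustment over all genes tested in the class. The script was tested on simulated data. Each mouse is 1 library. For shares of cells the exact permutation test over mice was run in Python 3.11.15 with scipy 1.17.1. Alternatives were DESeq2 1.42.0, library size only, no filter, other cell limits, a stricter gate and leaving out each mouse. The replicate numbers are not shared between the groups.

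The members and the gene lists were chosen with earlier results of these data known. Named genes are the 7 members, the 3 called interferon-stimulated genes with the smallest adjusted p in KCs and in the classes with most members called, and the 5 genes whose level was most like that of the members. Other genes of the lists were named for their role after their values were seen. Promoter sequences are from RefSeq (GRCm38.p6). A result for 1 further gene of the lists is not reported here.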

Additional observations from a re-analysis of the deposited data

Results flagged for a closer look

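A mouse stood apart from the other 3 of its group in 9 of 106 groups of 4 mice, where chance gives about 1 in 20. The 106 include groups of BG-treated and of control mice, and all 9 were groups of control mice. In all T and NK cells together control replicate 4 had 30.4 CPM of Ifit1 (others 19.0 to 20.7 CPM) and 7.67 CPM of Cmpk2 (4.78 to 4.96 CPM), and control replicate 2 had 3.03 CPM of Ifi44 (1.62 to 1.72 CPM). The same mice stood apart in subsets of these cells, which are not independent, with 31.8 CPM of Ifit1 in T cells (19.2 to 20.2 CPM) and 35.7 CPM in NKT-like cells (20.5 to 22.6 CPM) of control replicate 4, and 5.29 CPM of Ifi44 in NKT-like cells of control replicate 2 (0.861 to 1.61 CPM). In endothelial cells control replicate 1 had 120.5 CPM of Rsad2 (74.3 to 80.6 CPM) and control replicate 3 had 25.1 CPM of Cmpk2 (35.7 to 37.6 CPM). In B cells control replicate 4 had 5.79 CPM of Ifit2 (6.75 to 6.94 CPM).

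The BG effect on Rsad2 differed between B cells and KCs, by 2.53 on the log2 scale.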

How the results depend on the processing

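No paired analysis was possible because the groups share no replicate number. The pooled class of all kept cells and endothelial cells kept 7 members called without any 1 mouse. Leaving out 1 mouse gave 6 to 7 in T cells and in all T and NK cells, 5 to 6 in B cells, 3 to 5 in NKT-like cells, 1 to 3 in monocytes and macrophages, 1 to 3 in neutrophils, 1 to 2 in pDCs, 1 to 2 in CD4 T cells, 0 to 2 in CD8 T cells, 0 to 1 in Cxcr6 CD4 T cells and 0 to 1 in KCs. The number of member and class pairs that differed from KCs was 0 to 2. In KCs the Rsad2 value was -0.21 without control replicate 3 and 1.84 without control replicate 4, a range of -0.21 to 1.84.

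With mitochondrial UMIs at most 10%, 3 of 4 members tested were called in endothelial cells, 0 of 3 in monocytes and macrophages and 1 of 2 in NKT-like cells, and no member could be tested in B, CD8 T or Cxcr6 CD4 T cells. With no filter on low counts, 1 was called in cDC2s, 4 in neutrophils, 2 in the NK and ILC1 gates, 1 in ILC1-like cells, 2 in CD4 T cells and 4 in Cxcr6 CD4 T cells. With DESeq2, 0 were called in pDCs and 0 in Cxcr6 CD4 T cells. With no upper limit on genes, 2 were called in pDCs, 2 in neutrophils and 0 in Cxcr6 CD4 T cells. With the stricter gate 1 was called in CD8 T cells. With KCs taken with or without T cell markers, an alternative chosen after seeing the data, 1 of 4 was called. The causes were not tested, beyond the members that each setting lets be tested. Each setting, and each mouse left out, also changes which genes are tested. The share of all genes called is not given for them, so these counts describe only how the calls move. Of the single members, 281 of the values from the alternative settings stayed on their side of the threshold, 8 lost a call and 2 gained one. Of the values with 1 mouse left out, 394 stayed on their side, 27 lost a call, 4 gained one and 1 changed sign. Few cells limit KCs, neutrophils and dendritic cells, where most members could not be tested.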
